A study of Mus musculus with 9 samples.

Results

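The comparison was between lungs of mice in the PepNzymeSOD-CAT group and lungs of mice in the pulmonary fibrosis model group, with 3 RNA-seq libraries on each side and each library made from 1 mouse. These are 6 of the 9 libraries of the series, and the other 3 came from a normal group. Genes were taken where 3 or more of the 6 libraries reached an FPKM of 1, which gave 13955 of the 25526 names in the deposited table. FPKM counts the fragments assigned to a gene per unit of transcript length and of library size, so levels can be set side by side between genes. The tissue was whole lung from mouse in every group. The labels give neither strain nor age, and neither the agent that induced fibrosis nor the dose, route, start or length of nanozyme treatment. The title calls the material inhalable. The labels do not state whether the nanozyme mice carried the fibrosis model, nor whether the model mice received a vehicle. The numbers in the library names set the nanozyme libraries apart from those of the other groups, and a difference in handling between these sets therefore cannot be told apart from treatment.

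Nanozymes are man-made materials that catalyse the reactions of natural enzymes, and PepNzymeSOD-CAT is named after superoxide dismutase and catalase. Superoxide dismutases turn superoxide into hydrogen peroxide, and catalase turns hydrogen peroxide into water and oxygen. In the lung, superoxide is made mainly by mitochondria and by the NADPH oxidase of neutrophils and macrophages. Pulmonary fibrosis is a build-up of collagen-rich matrix by fibroblasts and myofibroblasts after injury to the alveolar epithelium, often with inflammation in its early phase. The series asked how the nanozyme acts in this disease.

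Lung identity was checked on defining markers before any comparison. Sftpc, the surfactant protein made by alveolar type 2 cells, was at 18319.6, 13411 and 25163 FPKM in the nanozyme libraries and 8900.4, 6177 and 8474 FPKM in the model libraries. Scgb1a1, the main secretory protein of airway club cells, was at 21812, 17044 and 25749.6 FPKM in the nanozyme libraries and 14018, 11570.0 and 5138 FPKM in the model libraries. Both are among the most abundant transcripts of lung, and both were high in all 6 libraries. FPKM sums of the 6 libraries ran from 443746 to 519772, and read depth was unknown. Values of a gene are given below in the order of libraries 1, 2 and 3 of a group. A change is the nanozyme mean minus the model mean on the log2(FPKM + 1) scale, with its standard error from limma. This scale understates the change of genes with low levels.

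The 3 nanozyme libraries did not stand together. Nanozyme 1 lay outside the range of the 3 model libraries at 64.7% of tested genes, with 3446 genes below it and 5580 above it. Nanozyme 3 lay outside that range at 67.3% of genes, with 3486 below and 5909 above. For nanozyme 2 the share was 34.9%, with 1909 genes below and 2961 above. The median absolute distance from the model mean was 0.29 log2 units for nanozyme 1, 0.31 for nanozyme 3 and 0.13 for nanozyme 2. A distance of over 1 log2 unit was seen at 1561 genes in nanozyme 1, 1527 in nanozyme 3 and 185 in nanozyme 2. A model library set against the mean of the other model libraries passed that distance at 216 genes for model 1, 584 for model 2 and 394 for model 3. By this count nanozyme 2 lay closer to the model mean than any model library lay to the others, although a mean of 2 libraries is less precise than a mean of 3.

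Nanozyme 2 lay within the model range at 4266 genes (30.6% of those tested) at which nanozyme 1 and nanozyme 3 both lay on the same side outside it. Nanozyme 1 was the one within the range at 582 such genes, and nanozyme 3 at 236. Across the tested genes, Pearson's r of log2(FPKM + 1) between nanozyme 2 and the model libraries was 0.978, 0.965 and 0.968. It was 0.905 with nanozyme 1 and 0.932 with nanozyme 3, whereas nanozyme 1 and nanozyme 3 correlated at 0.966. These are correlations across genes, which are not independent replicates. On the first principal component of all 9 libraries, which held 64.7% of the variance, nanozyme 2 stood at 42.3, between model 1 at 38.6 and the other model libraries. Nanozyme 1 stood at -14.1 and nanozyme 3 at -10.3, between the model and the normal libraries. On the second component, with 14.4% of the variance, nanozyme 1 stood at -41.4 and nanozyme 3 at -32.8. Both were below all model and normal libraries there, the lowest of which was model 3 at -7.81. The library labelled nanozyme 2 stood with the model group by these measures, and its value is given below for each gene described by its levels. For gene lists, the medians of nanozyme 1, 2 and 3 are the members' median differences from the model mean on the log2 scale.

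**Figure D1:**
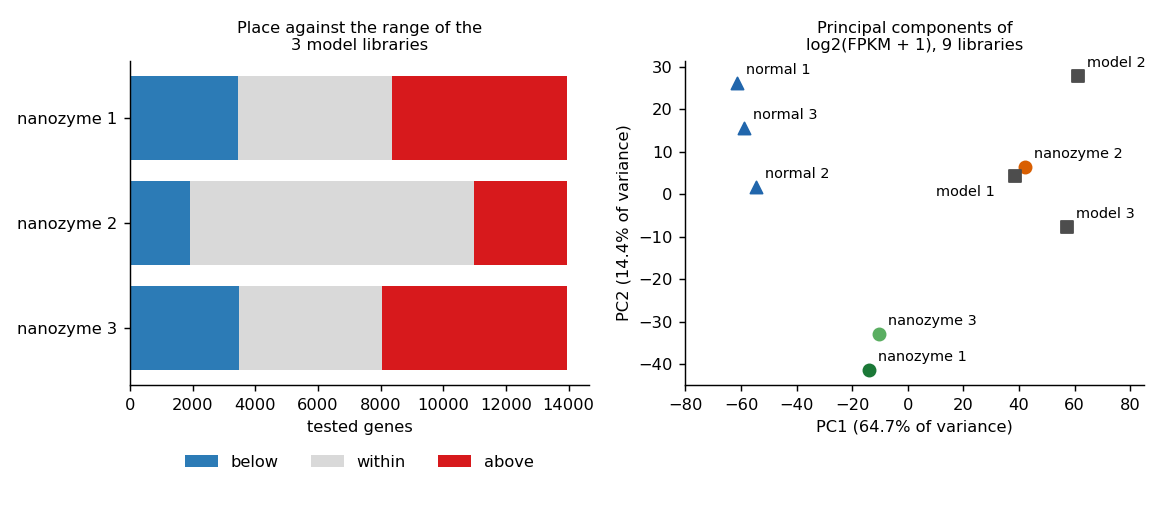
The left panel counts the tested genes at which each nanozyme library had an FPKM below, within or above the range of the 3 model libraries. The right panel shows the first and second principal components of log2(FPKM + 1) for all 9 libraries, with nanozyme 2 next to model 1 and the other nanozyme libraries between the model and normal groups on the first component.

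With all 6 libraries in the test, no gene passed an adjusted p of 0.05 (Benjamini-Hochberg, limma). The count was 0 higher (0% of tested genes) and 0 lower (0%), and the smallest adjusted p was 0.0905. At an unadjusted p under 0.05, 1089 genes were higher in the nanozyme group (7.8%) and 821 were lower (5.88%). Every nanozyme library lay above every model library at 1458 genes (10.4%) and below every one at 841 genes (6.03%). That split depended on how libraries were scaled. Of the genes without overlap, 63.4% were higher with FPKM as deposited, against 51.9% after scaling to equal sums, 50.7% after quantile normalization, 46.3% after median-of-ratios scaling and 65.1% after rescaling without the 100 most abundant genes. The median change over all tested genes was 0.09.

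Leaving out nanozyme 2 gave the only large count among the fits with 1 library left out. In that fit of 2 nanozyme against 3 model libraries, 566 genes were higher (4.11% of 13774 tested) and 891 were lower (6.47%) at an adjusted p under 0.05. Leaving out any other library gave 0 or 1 call in each direction. A fit in which limma weights each library by its spread gave 748 higher and 920 lower genes, with a weight of 0.338 for nanozyme 2, the lowest of the 6, followed by 0.418 for model 2. The calls of the weighted fit and of the fit without nanozyme 2 shared 1236 genes, 84.8% of the latter and 74.1% of the former. Both fits reduce or remove the part of nanozyme 2, so this overlap is not independent support for the calls. Below, "passed" refers to an adjusted p under 0.05 in the fit without nanozyme 2, since no named gene passed with all 6 libraries. Adjusted p-values of the 104 genes named with values ran from 0.356 to 0.984 with all 6 libraries (limma), and 66 of them passed without nanozyme 2. That fit is 1 of the 6 that left out 1 library and is singled out after the place of nanozyme 2 was seen, so its counts do not stand in for the full comparison.

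The gene names that follow come first from genes at which all 3 nanozyme libraries lay on 1 side of all 3 model libraries. They were the 12 in each direction with the smallest unadjusted p among those with a mean FPKM of at least 5, and none was called. Tppp3, a tubulin-binding protein of ciliated cells, was at 205, 205 and 241 FPKM in the nanozyme libraries and 109, 118 and 89.7 FPKM in the model libraries, a change of 1.04 ± 0.16. All 3 nanozyme libraries were above all 3 model libraries and below the normal level of 344 ± 36.5 FPKM (SD, n = 3 mice). The gene lies on chromosome 8 from 105467493 to 105471526 (GRCm38, GENCODE vM21). Ear2, an eosinophil-associated ribonuclease that alveolar macrophages of the mouse also express, was at 82.5, 68.5 and 103 FPKM in the nanozyme libraries and 38.5, 37.2 and 42.8 FPKM in the model libraries. Its change was 1.06 ± 0.17, and its level in normal lung, 39.0 ± 4.94 FPKM, was within the model range. Its relative Ear10 was at 9.82, 8.15 and 9.65 FPKM in the nanozyme libraries and 3.86, 3.49 and 4.62 FPKM in the model libraries. Nanozyme 2 was the lowest of the nanozyme libraries for both ribonucleases and still lay above every model library.

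S100g, a calcium-binding protein also called calbindin D9k, was at 75.6, 47.3 and 74.9 FPKM in the nanozyme libraries and 29.9, 24.5 and 23.8 FPKM in the model libraries. Its change was 1.28 ± 0.21. Cyp2s1, a cytochrome P450 of epithelial tissues, was at 54.4, 38.0 and 66.6 FPKM in the nanozyme libraries and 24.0, 24.9 and 24.2 FPKM in the model libraries, with a change of 1.06 ± 0.21. For both genes nanozyme 2 was the lowest nanozyme library, and normal lung was higher than all 6, at 102 ± 4.65 and 120.1 ± 5.48 FPKM. Pla2g1b, a secreted phospholipase A2, was at 15.6, 15.4 and 12.6 FPKM in the nanozyme libraries and 8.70, 8.56 and 7.14 FPKM in the model libraries. The other 6 named higher genes were Ube2l3, Rdm1, Inpp5k, Tcta, Abhd14b and Ypel3. Ube2l3, a ubiquitin-conjugating enzyme, had the largest change of the 12, 1.33 ± 0.20, with 30.6, 46.5 and 30.6 FPKM in the nanozyme libraries and 11.7, 14.4 and 14.3 FPKM in the model libraries. The highest nanozyme value of Ube2l3 was in nanozyme 2. Normal lung held 14.5, 35.3 and 50.8 FPKM of it, from just above the model range to above all nanozyme libraries.

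Among the genes with lower values in all nanozyme libraries, several are known from macrophages. Ms4a4a, a tetraspan protein of macrophages, was at 7.48, 12.01 and 8.62 FPKM in the nanozyme libraries and 20.2, 21.7 and 23.5 FPKM in the model libraries, a change of -1.16 ± 0.18. C3ar1, the receptor for the complement fragment C3a, was at 8.204, 9.91 and 5.24 FPKM in the nanozyme libraries and 15.1, 20.4 and 17.1 FPKM in the model libraries, a change of -1.10 ± 0.23. Ltb4r1, a receptor for the neutrophil attractant leukotriene B4, was at 5.96, 7.63 and 4.28 FPKM in the nanozyme libraries and 11.9, 12.2 and 10.9 FPKM in the model libraries. Normal lung held less of each of the 3 than any of the 6 libraries, with 1.75 ± 0.276 FPKM for Ms4a4a and 0.960 ± 0.20039 FPKM for C3ar1.

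Lox, which crosslinks collagen and elastin, was at 20.1, 26.1 and 14.5 FPKM in the nanozyme libraries and 41.8, 37.2 and 42.0 FPKM in the model libraries, a change of -0.99 ± 0.21. Nanozyme 2 was the highest nanozyme library and lay 0.60 log2 units below the model mean. Aen, a nuclease induced by p53, was at 6.69, 6.23 and 6.56 FPKM in the nanozyme libraries and 11.2, 12.4 and 11.6 FPKM in the model libraries, and its 3 nanozyme values were close together. Akr1c14, an aldo-keto reductase that acts on steroids, was at 38.5, 40.5 and 39.7 FPKM in the nanozyme libraries and 70.2, 64.5 and 69.4 FPKM in the model libraries. Tnfrsf12a, the receptor of the cytokine TWEAK, was at 28.8, 35.7 and 26.1 FPKM in the nanozyme libraries and 57.3, 49.8 and 50.6 FPKM in the model libraries. Tinagl1, Picalm, Rab7b and Rtn4rl2 were also named by this rule. For Aen, Akr1c14 and Tinagl1 the nanozyme libraries differed by no more than a few FPKM, and nanozyme 2 did not stand apart.

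**Figure D2:**
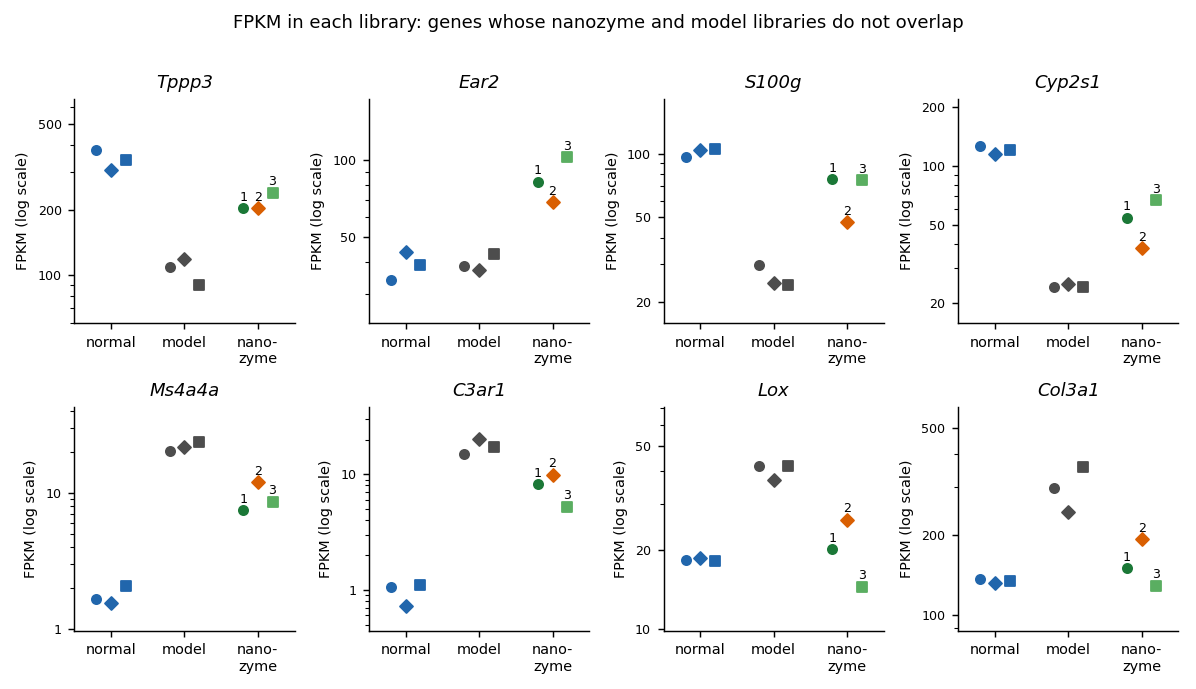
FPKM on a log axis in each library for 4 genes higher and 4 genes lower in all 3 nanozyme libraries than in all 3 model libraries. Points are single libraries, with the replicate number over the nanozyme points, and nanozyme 2 lies between the other nanozyme libraries and the model group for Ear2, S100g, Cyp2s1, Ms4a4a, C3ar1, Lox and Col3a1.

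Among the gene lists, inflammatory cytokines, interferon-induced genes and acute-phase genes had the lowest medians in nanozyme 1 and nanozyme 3. Interferons switch on genes through interferon-stimulated response elements (ISRE) in promoters. Tumour necrosis factor and interleukin 1 act through NF-kB, which binds kappaB sites. Promoters of 3 such genes are shown because their transcripts carry the pattern of this section. They are the 250 bases before the start site from RefSeq (GRCm38.p6), 5′ to 3′ on the gene's strand, with motif matches in capitals. The promoter of Ifit1, an antiviral protein, lies at chr19:34640639-34640888, plus strand, that of Cxcl10, a chemokine for T cells, at chr5:92348890-92349139, minus strand, and that of Il6 at chr5:30012864-30013113, plus strand.
Ifit1: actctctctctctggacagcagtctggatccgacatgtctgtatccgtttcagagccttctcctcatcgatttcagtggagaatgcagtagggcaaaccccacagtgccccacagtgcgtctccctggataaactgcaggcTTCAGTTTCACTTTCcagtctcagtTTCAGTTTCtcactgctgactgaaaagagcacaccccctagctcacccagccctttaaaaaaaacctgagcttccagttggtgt
Cxcl10: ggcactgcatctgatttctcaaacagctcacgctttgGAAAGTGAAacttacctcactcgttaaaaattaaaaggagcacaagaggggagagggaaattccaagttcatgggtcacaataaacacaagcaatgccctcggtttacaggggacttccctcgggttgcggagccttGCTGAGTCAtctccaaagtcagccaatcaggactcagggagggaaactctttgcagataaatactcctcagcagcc
Il6: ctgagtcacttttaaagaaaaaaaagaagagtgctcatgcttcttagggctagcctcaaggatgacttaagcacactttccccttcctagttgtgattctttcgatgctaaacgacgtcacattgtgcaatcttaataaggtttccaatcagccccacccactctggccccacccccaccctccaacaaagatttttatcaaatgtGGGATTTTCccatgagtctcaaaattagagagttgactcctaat
Matches were sought on both strands to an ISRE core, GAAANNGAA, a kappaB site, GGGANTTTC, and an antioxidant response element core, TGACNNNGC. Ifit1 held 3 ISRE matches on the opposite strand, of which 2 overlap in the first run of capitals. Cxcl10 held 1 ISRE match, in the first run, and 1 antioxidant response element match on the opposite strand. Il6 held 1 kappaB match, which began 44 bases before the start site.

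The ISRE core occurred in 8.56% of the 32851 promoters of the RefSeq table, measured over 300 bases from 250 before the start site to 50 after it. Promoters were found for 21 of the 26 tested interferon-induced genes, and the core was in 14 of their 25 promoters (56%). The kappaB site occurred in 1.11% of all promoters and in 6 of 24 promoters (25%) of 21 tested cytokine genes. It was in 3 of 17 (17.6%) promoters of NF-kB subunits and feedback genes. The antioxidant response element core occurred in 12.4% of all promoters and in 8 of 30 (26.7%) of NRF2 target genes. Over the 13267 promoters of tested genes alone, the ISRE core was in 7.50% and the kappaB site in 1.02%. The antioxidant response element core was in 14.4% of them. A match is a run of letters and does not show binding. Each motif was sought as 1 exact pattern, so a promoter without a match may still hold a site of another form.

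Of 29 inflammatory cytokines and chemokines tested, 18 were lower and 1 was higher at an unadjusted p under 0.05, against 5.88% and 7.8% of all tested genes. Without overlap, 6 were lower and 1 was higher, against 6.03% and 10.4% of all tested genes. The median change was -1.92, against 0.09 over all tested genes. Without nanozyme 2, 24 passed as lower and 0 as higher, against 6.47% and 4.11% of all tested genes, with a median of -2.83 against 0.11. Nanozyme 1 was below the model range at 27 of the 29, nanozyme 3 at 28 and nanozyme 2 at 6. The list median thus rested on nanozyme 1 and nanozyme 3. Counts of each list below are to be read against these same shares of all tested genes. Counts of members outside the model range have their own background over the 13955 tested genes. In nanozyme 1, 2 and 3 it was 3446, 1909 and 3486 genes below the range and 5580, 2961 and 5909 above it.

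Il1b, which encodes interleukin 1 beta, was at 35.2, 397 and 48.4 FPKM in the nanozyme libraries and 345, 606 and 617 FPKM in the model libraries. Its change was -2.50 ± 0.89 with all libraries and -3.58 without nanozyme 2. Nanozyme 2 lay inside the model range, while nanozyme 1 and nanozyme 3 were below it. Tnf, the gene of tumour necrosis factor, was at 1.32, 51.1 and 3.99 FPKM in the nanozyme libraries and 39.5, 76.0 and 62.1 FPKM in the model libraries, with changes of -2.78 ± 1.08 and -4.09 in these fits. Il6, the main inducer of acute-phase proteins, was at 1.37, 15.2 and 1.62 FPKM in the nanozyme libraries and 15.95, 12.9 and 22.3 FPKM in the model libraries. Its normal level was 1.34 ± 0.347 FPKM, near nanozyme 1 and nanozyme 3. Cxcl10 was at 11.7, 467 and 35.8 FPKM in the nanozyme libraries and 381, 572 and 650.4 FPKM in the model libraries, with nanozyme 2 inside the model range. Ccl2, which attracts monocytes, was at 19.1, 96.4 and 10.1 FPKM in the nanozyme libraries and 96.7, 98.3 and 114 FPKM in the model libraries, and here nanozyme 2 was just under the lowest model library. The member higher without overlap was Il18, a cytokine of the interleukin 1 family chosen after its values were seen, with 10.8, 11.6 and 14.1 FPKM in the nanozyme libraries and 5.43, 8.78 and 9.80 FPKM in the model libraries.

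Among 17 NF-kB subunits and feedback genes the median change was -1.07, with 11 lower and 0 higher at an unadjusted p under 0.05. Members below the model range numbered 17, 4 and 16 in nanozyme 1, 2 and 3, and 13 passed as lower without nanozyme 2. Nfkbia, the inhibitor that NF-kB itself induces, was at 63.0, 229 and 82.1 FPKM in the nanozyme libraries and 234, 312 and 244 FPKM in the model libraries, a change of -1.29 ± 0.47. Icam1, an adhesion molecule for leukocytes, was at 208, 369 and 208 FPKM in the nanozyme libraries and 353, 385 and 424 FPKM in the model libraries.

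All 26 tested interferon-induced genes lay below the model range in nanozyme 1 and in nanozyme 3, and 1 did in nanozyme 2. The median change was -1.68, with 11 members lower and 0 higher at an unadjusted p under 0.05, and all 26 passed as lower without nanozyme 2. Gbp2, a guanylate-binding protein, was at 39.1, 598 and 76.5 FPKM in the nanozyme libraries and 430.2, 862 and 797 FPKM in the model libraries, with a change of -2.44 ± 0.96 and of -3.58 without nanozyme 2. Bst2, which tethers budding viruses, was at 109, 444 and 145 FPKM in the nanozyme libraries and 334, 454 and 395 FPKM in the model libraries. Ifit1, named for its promoter, was at 9.59, 81.2 and 12.4 FPKM in the nanozyme libraries and 61.6, 107 and 124 FPKM in the model libraries, with a normal level of 11.8 ± 2.09 FPKM. For each of these 3 genes nanozyme 2 was inside the model range.

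Of 16 acute-phase genes, 10 were lower and 0 higher at an unadjusted p under 0.05, with a median change of -1.71, and 14 passed as lower without nanozyme 2. Saa3, a serum amyloid A protein made in inflamed lung, was at 759, 6100.4 and 619 FPKM in the nanozyme libraries and 6384, 13203 and 7175 FPKM in the model libraries, a change of -2.57 ± 0.89. It lies on chromosome 7 from 46711998 to 46715700. Lcn2, a neutrophil protein that binds bacterial iron carriers, was at 257, 3526 and 469.6 FPKM in the nanozyme libraries and 3887, 5412 and 3969 FPKM in the model libraries, a change of -2.54 ± 0.92. Both genes lay below the model range in all 3 nanozyme libraries, with nanozyme 2 close under its lower end. Normal lung held 4.97 ± 0.601 FPKM of Saa3 and 73.8 ± 2.47 FPKM of Lcn2, less than in nanozyme 1 and nanozyme 3.

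**Figure D3:**
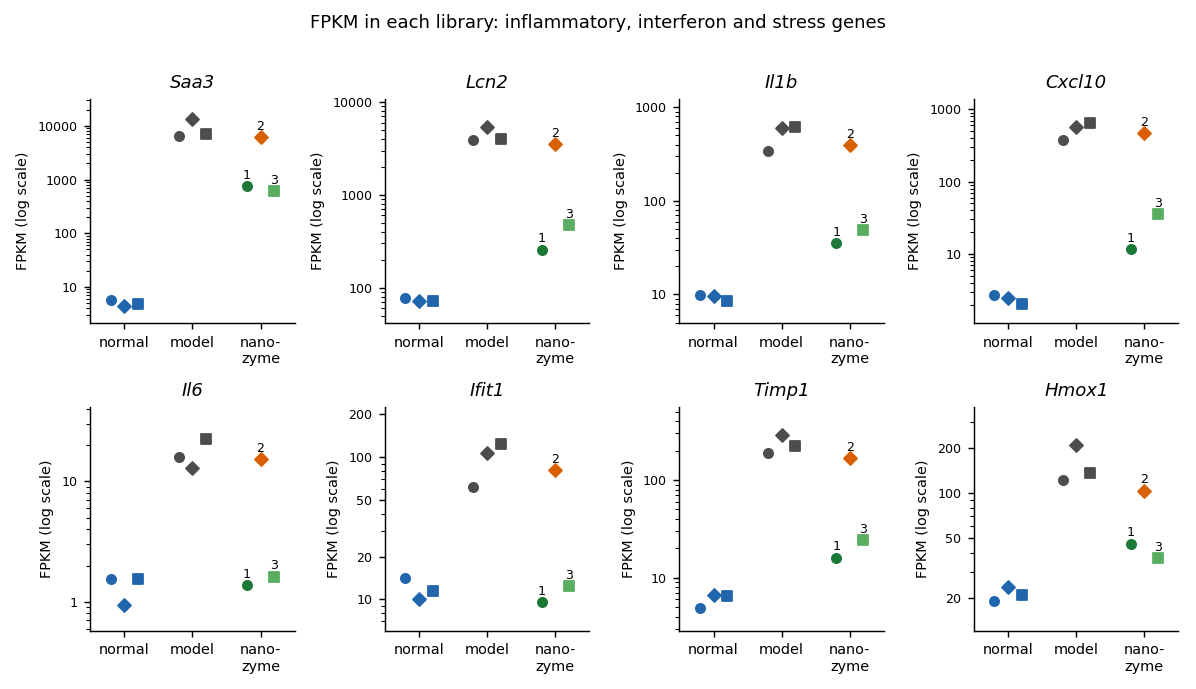
FPKM on a log axis in each library for 8 genes of inflammation, interferon response, protease inhibition and haem breakdown. Points are single libraries, with the replicate number over the nanozyme points, and nanozyme 2 lies in or near the model group in every panel while nanozyme 1 and nanozyme 3 lie between the model and normal groups or at the normal level.

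Markers of blood-derived leukocytes were described next. In whole lung, fewer cells of a type and less RNA per cell cannot be told apart. Of 18 neutrophil markers, 11 were lower and 0 higher at an unadjusted p under 0.05, and 8 were lower without overlap. Over all tested genes these shares were 5.88%, 7.8% and 6.03%. The median of the neutrophil markers was -1.12, and 13 passed as lower without nanozyme 2, against 6.47% of all tested genes. S100a8, which with S100a9 forms the calprotectin of neutrophils, was at 399.6, 1189 and 482 FPKM in the nanozyme libraries and 847, 1218 and 997 FPKM in the model libraries. S100a9 was at 529, 1606 and 606 FPKM in the nanozyme libraries and 1147, 1499 and 1471 FPKM in the model libraries. Nanozyme 1 and nanozyme 3 held less of both than any model library, and nanozyme 2 was inside the model range for S100a8 and above it for S100a9. The neutrophil collagenase Mmp8 was at 12.9, 41.6 and 15.8 FPKM in the nanozyme libraries and 56.0, 83.9 and 69.8 FPKM in the model libraries, a change of -1.70 ± 0.42, and it was singled out after its values were seen as a marker low in all 3 nanozyme libraries. Normal lung held 12.4 ± 0.575 FPKM of S100a8.

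Of 25 markers of monocytes and recruited macrophages, 14 were lower and 2 higher at an unadjusted p under 0.05, with a median change of -0.76 and 8 lower without overlap. The members below the model range were 20, 9 and 20 in nanozyme 1, 2 and 3. Arg1, an arginase of alternatively activated macrophages, was at 8.88, 4.42 and 2.02 FPKM in the nanozyme libraries and 12.9, 34.3 and 23.2 FPKM in the model libraries, a change of -2.07 ± 0.50. Here nanozyme 2 was lower than nanozyme 1. Spp1, or osteopontin, a marker of fibrosis-associated macrophages, was at 52.6, 45.2 and 31.6 FPKM in the nanozyme libraries and 76.6, 64.4 and 52.1 FPKM in the model libraries. Its groups touched, since nanozyme 1 lay just above the lowest model library. The most abundant members did not follow the list median. Lyz2, the lysozyme of monocytes, macrophages and neutrophils, was at 5855, 9726 and 6472 FPKM in the nanozyme libraries and 6839, 9547 and 7276 FPKM in the model libraries, a change of -0.12 ± 0.35, with nanozyme 2 above the model range. Apoe, an apolipoprotein of macrophages and other cells, was at 248, 442 and 734 FPKM in the nanozyme libraries and 279.7, 240.4 and 672 FPKM in the model libraries, a change of 0.28 ± 0.52, with nanozyme 3 above the model range. Cd14, a co-receptor for bacterial lipopolysaccharide, and Csf1r, the receptor of macrophage colony-stimulating factor, were chosen after their values were seen. Cd14 was at 44.8, 314 and 51.3 FPKM in the nanozyme libraries and 324, 524 and 406 FPKM in the model libraries, and Csf1r was at 61.8, 74.1 and 51.4 FPKM in the nanozyme libraries and 89.6, 109.7 and 96.0 FPKM in the model libraries.

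The 16 alveolar macrophage markers had a median change of 0.37, with 0 lower and 6 higher at an unadjusted p under 0.05. Without nanozyme 2, 3 passed as higher and 3 as lower, and 4 members lay below the model range in nanozyme 1 and 4 in nanozyme 3. The most abundant members overlapped between groups. Chil3, a chitinase-like protein, was at 408, 539 and 493 FPKM in the nanozyme libraries and 455, 576 and 436 FPKM in the model libraries, a change of -0.03 ± 0.20, and Fabp5, a fatty acid-binding protein, was at 147, 184 and 105 FPKM in the nanozyme libraries and 166, 222 and 110.4 FPKM in the model libraries, a change of -0.17 ± 0.31. Ear2, described above, Siglecf, Pparg and Ear1 were higher without overlap. Siglecf, a sialic acid-binding receptor of alveolar macrophages and eosinophils, was at 5.04, 2.82 and 4.37 FPKM in the nanozyme libraries and 1.45, 1.39 and 1.86 FPKM in the model libraries. It also stood in the list of mast cell and eosinophil markers, of which 2 were tested, with a median of 0.92. The other was Kit, the stem cell factor receptor, at 35.2, 20.1 and 34.3 FPKM in the nanozyme libraries and 17.2, 8.31 and 24.5 FPKM in the model libraries. Pparg, a nuclear receptor needed by alveolar macrophages, was chosen after its values were seen and was at 6.34, 4.44 and 4.78 FPKM in the nanozyme libraries and 3.21, 2.54 and 3.51 FPKM in the model libraries. Nanozyme 2 had the lowest Siglecf and Pparg values of the nanozyme group and still exceeded all model libraries.

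B cell markers had the highest median change of the 46 lists compared, 0.98, with 0 lower and 8 higher at an unadjusted p under 0.05 of 11 and 6 higher without overlap. Cd79b, a chain of the B cell receptor, was at 86.6, 24.4 and 71.0 FPKM in the nanozyme libraries and 24.8, 20.8 and 21.7 FPKM in the model libraries, a change of 1.21 ± 0.45. Nanozyme 2 was inside the model range, and normal lung held 26.7 ± 4.36 FPKM. Cd37, a tetraspanin of B cells, was at 47.1, 37.3 and 42.9 FPKM in the nanozyme libraries and 36.5, 34.5 and 34.1 FPKM in the model libraries. Among 7 plasma cell markers the median change was 0.69, with medians of 1.29, 0.01 and 0.61 in nanozyme 1, 2 and 3. The most abundant were Xbp1, a transcription factor of secretory cells, and Sdc1, a syndecan that epithelium also expresses. Xbp1 was at 126, 129.9 and 109 FPKM in the nanozyme libraries and 124, 132 and 110.2 FPKM in the model libraries, a change of -0.01 ± 0.14, and Sdc1 was at 86.6, 83.8 and 88.5 FPKM in the nanozyme libraries and 89.4, 93.6 and 85.7 FPKM in the model libraries, a change of -0.05 ± 0.11, and both overlapped between groups. Jchain, which joins secreted immunoglobulins, was chosen after its values were seen and was at 143, 3.69 and 31.1 FPKM in the nanozyme libraries and 2.60, 7.93 and 3.16 FPKM in the model libraries. Its high values were in nanozyme 1 and nanozyme 3 alone.

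T cell markers (13 tested) had a median change of -0.11, and NK and cytotoxic cell markers (12 tested) of 0.14. The medians of nanozyme 1, 2 and 3 were -0.41, -0.02 and 0.12 for T cells and 0.11, 0.05 and 0.32 for NK and cytotoxic cells. Gzma, a granule protease of cytotoxic cells, was at 139, 90.0 and 168 FPKM in the nanozyme libraries and 86.2, 81.3 and 69.3 FPKM in the model libraries, a change of 0.70 ± 0.25, without overlap. Ccl5, a chemokine of cytotoxic cells, lay on the other side, at 80.2, 145 and 140.2 FPKM in the nanozyme libraries and 140.3, 494 and 219 FPKM in the model libraries, a change of -1.06 ± 0.48 with overlapping groups. Lck, a kinase of the T cell receptor pathway, was at 11.8, 12.1 and 15.1 FPKM in the nanozyme libraries and 13.3, 15.3 and 14.1 FPKM in the model libraries, a change of -0.13 ± 0.14. Cd2, an adhesion receptor of T and NK cells, was at 28.4, 10.5 and 28.5 FPKM in the nanozyme libraries and 10.7, 11.3 and 8.95 FPKM in the model libraries. For Cd2 nanozyme 1 and nanozyme 3 stood above the 4 other libraries. The 11 genes of MHC class II presentation had a median of -0.65, with 1 lower and 1 higher at an unadjusted p under 0.05 and 2 higher and 0 lower without overlap over all 6 libraries. Their medians were -1.21, 0.15 and -0.77 in nanozyme 1, 2 and 3, and without nanozyme 2, 7 passed as lower and 1 as higher. Cd74, the invariant chain of MHC class II, was at 674, 1656 and 879.6 FPKM in the nanozyme libraries and 1564, 1771 and 1364 FPKM in the model libraries. H2-Ob, which B cells express and which tempers peptide loading, was chosen after its values were seen. It went the other way, with 18.4, 11.1 and 17.7 FPKM in the nanozyme libraries and 8.78, 6.55 and 9.66 FPKM in the model libraries. Dendritic cell markers (10 tested, median 0.06) and platelet genes (10 tested, median 0.68) each had 1 member higher at an unadjusted p under 0.05. The share was 7.8% over all tested genes, so these counts do not set the 2 lists apart. Platelet genes had medians of 0.57, 0.03 and 1.45 in nanozyme 1, 2 and 3, and dendritic cell markers of 0.02, 0.10 and 0.06.

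Transcripts of the host's own antioxidant enzymes were given with 95% intervals, since the nanozyme carries the activities of 2 of them. The interval is an estimate for the difference between the 2 groups, made for each gene alone and not adjusted for the number of genes tested. It does not replace the adjusted p, by which no gene was called with all 6 libraries. Sod1, the cytosolic superoxide dismutase, was at 337, 293 and 379 FPKM in the nanozyme libraries and 264, 271 and 176 FPKM in the model libraries, a change of 0.52 ± 0.22 with an interval of -0.01 to 1.05. All nanozyme libraries were above all model libraries, and normal lung held 425 ± 11.997 FPKM. The gene lies on chromosome 16 from 90220754 to 90226329. Sod2, the mitochondrial form, which NF-kB induces, was at 18.3, 84.4 and 20.4 FPKM in the nanozyme libraries and 96.4, 119 and 141 FPKM in the model libraries, a change of -1.85 ± 0.57 with an interval of -3.21 to -0.49. It was lower in all 3 nanozyme libraries, and nanozyme 1 and nanozyme 3 were at the normal level of 19.9 ± 0.769 FPKM. The gene lies on chromosome 17 from 13006846 to 13040063. Sod3, the extracellular form, was at 60.4, 62.3 and 82.9 FPKM in the nanozyme libraries and 62.7, 25.2 and 59.9 FPKM in the model libraries, with an interval of -0.31 to 1.43, and its groups overlapped.

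Cat, the gene of catalase, was at 124, 60.1 and 104 FPKM in the nanozyme libraries and 68.8, 43.2 and 53.3 FPKM in the model libraries, a change of 0.75 ± 0.30 with an interval of 0.02 to 1.48. Nanozyme 2 was inside the model range. The adjusted p of Cat was 0.356 with all libraries (limma). Without nanozyme 2 the change was 1.05 (adjusted p = 0.0381, limma). Cat was the only 1 of the 26 antioxidant enzymes that passed as higher in that fit, and 5 passed as lower. Normal lung held 136 ± 10.7 FPKM, and the gene lies on chromosome 2 from 103453849 to 103485160. Prdx6, a peroxiredoxin that also acts as a phospholipase in the lung, was at 331, 237 and 349.9 FPKM in the nanozyme libraries and 242, 212 and 199 FPKM in the model libraries. Prdx5, a mitochondrial and peroxisomal peroxiredoxin, was at 157, 436 and 142 FPKM in the nanozyme libraries and 386, 986 and 472 FPKM in the model libraries, with an interval of -2.68 to -0.12. Over the 26 antioxidant enzymes the median change was 0.03, with 4 higher and 3 lower without overlap, against 10.4% and 6.03% of all tested genes, counts too small to set the list apart from those shares. The lower ones were Sod2, the glutaredoxin Glrx and the thioredoxin reductase Txnrd1. The higher ones were Sod1, its copper chaperone Ccs, the lipid peroxide-reducing Gpx4 and the paraoxonase Pon2. Those not named earlier were named after their values were seen.

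**Figure D4:**
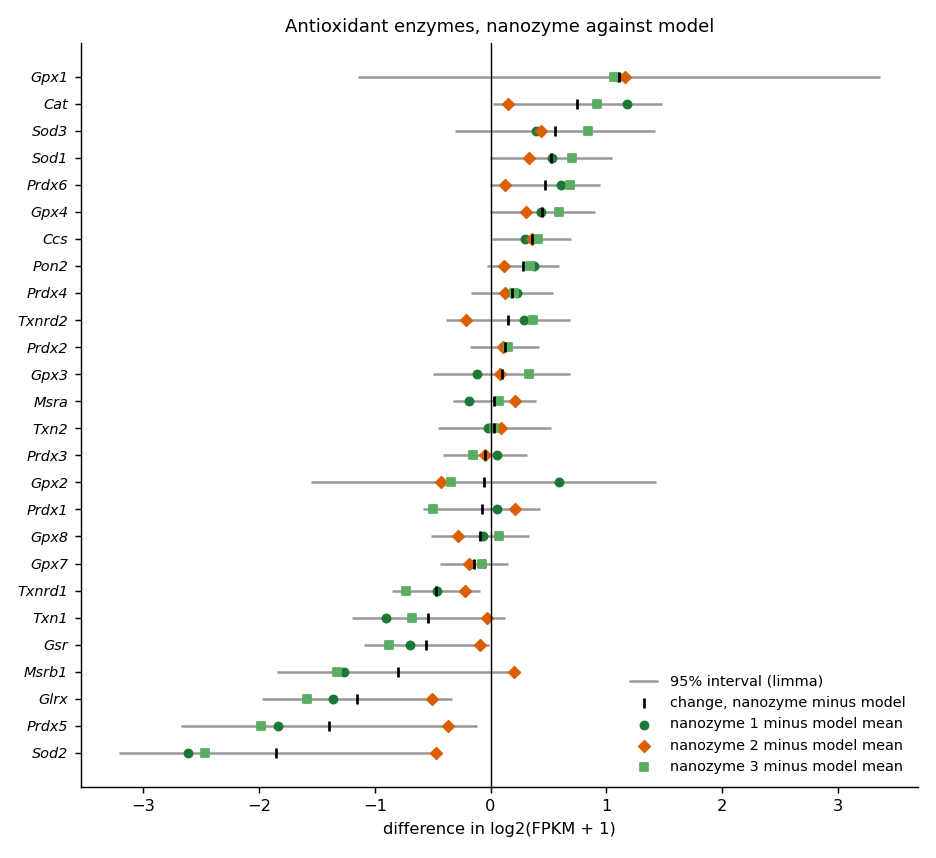
Differences in log2(FPKM + 1) between nanozyme and model libraries for 26 antioxidant enzymes, with the change and its 95% interval from limma and 1 point for each nanozyme library against the model mean. Sod2 has the lowest change, Cat and Sod1 lie among the highest, and the wide interval of Gpx1 comes with 1 model library at 36.1 FPKM.

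NRF2 is the transcription factor that switches on antioxidant and detoxification genes under oxidative stress. Of 25 NRF2 target genes, 4 were lower and 5 higher at an unadjusted p under 0.05, with a median of -0.14 and 1 higher and 4 lower without overlap. Over all tested genes, 5.88% were lower and 7.8% higher at that p, and 10.4% were higher and 6.03% lower without overlap. The ferritin chains Fth1 and Ftl1, which store iron, were the most abundant NRF2 targets of the list. Fth1 was at 3053, 8596 and 3403 FPKM in the nanozyme libraries and 5749, 8770.0 and 9274 FPKM in the model libraries, a change of -0.80 ± 0.49. Ftl1 was at 1850.5, 3393 and 1909.6 FPKM in the nanozyme libraries and 3089.6, 3848 and 2521 FPKM in the model libraries, a change of -0.44 ± 0.34. Both overlapped between groups. Hmox1, haem oxygenase 1, was at 46.1, 104 and 37.1 FPKM in the nanozyme libraries and 123, 209 and 136 FPKM in the model libraries, a change of -1.42 ± 0.41. All 3 nanozyme libraries were below all model libraries, and normal lung was at 21.2 ± 2.25 FPKM. Nqo1, a quinone reductase, was at 5.96, 2.54 and 3.27 FPKM in the nanozyme libraries and 2.43, 3.47 and 1.74 FPKM in the model libraries, with a change of 0.44 ± 0.30 and overlapping groups. Slc7a11, the cystine importer, and Gsta3, a glutathione S-transferase, were chosen after their values were seen as members at the ends of the list. Slc7a11 was at 0.436, 11.8 and 0.919 FPKM in the nanozyme libraries and 12.3, 17.8 and 14.9 FPKM in the model libraries, and Gsta3 was at 108, 33.5 and 73.7 FPKM in the nanozyme libraries and 39.7, 21.2 and 21.5 FPKM in the model libraries. The 5 members that were higher at an unadjusted p under 0.05 were the glutathione S-transferases Gstp1, Gstm1 and Gsta3, the epoxide hydrolase Ephx1 and the aldehyde oxidase Aox1. The sources of phagocyte oxidants (8 tested) had a median of -0.99, with 4 lower and 1 higher at an unadjusted p under 0.05, none free of overlap, and 6 passing as lower and 1 as higher without nanozyme 2. Cybb, the catalytic subunit of the phagocyte NADPH oxidase, was at 38.3, 139 and 36.0 FPKM in the nanozyme libraries and 107, 175 and 179 FPKM in the model libraries. Ncf1, a cytosolic subunit, was at 38.0, 130.4 and 36.9 FPKM in the nanozyme libraries and 123, 207 and 159 FPKM in the model libraries. In both genes nanozyme 2 was inside the model range and the other nanozyme libraries were below it.

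Fibrotic matrix is built mainly from fibrillar collagen. Of 26 fibrillar collagens and processing enzymes, 6 were lower and 2 higher at an unadjusted p under 0.05, and 6 were lower without overlap. Over all tested genes these shares were 5.88%, 7.8% and 6.03%. The median of the list was -0.12. Col3a1, a fibrillar collagen of lung and vessels, was at 150.0, 193 and 129 FPKM in the nanozyme libraries and 297, 243 and 355 FPKM in the model libraries, a change of -0.92 ± 0.22. All nanozyme libraries, including nanozyme 2, were below all model libraries, and normal lung held 134 ± 2.24 FPKM. It lies on chromosome 1 from 45311538 to 45349706. Col1a1 was at 51.4, 61.5 and 48.7 FPKM in the nanozyme libraries and 109.7, 59.8 and 103 FPKM in the model libraries, a change of -0.70 ± 0.25. Col1a2, which encodes the other chain of type I collagen, was at 98.1, 104 and 96.4 FPKM in the nanozyme libraries and 157, 93.2 and 158 FPKM in the model libraries. In both, model 2 was low and the groups overlapped.

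Among 25 matrix glycoproteins and proteoglycans the median change was 0.24, with 5 lower and 1 higher at an unadjusted p under 0.05. Fn1, fibronectin, was at 72.9, 56.4 and 44.9 FPKM in the nanozyme libraries and 79.6, 49.8 and 109 FPKM in the model libraries, with overlapping groups and a change of -0.40 ± 0.32. Tgfbi, a matrix protein induced by TGF-beta, and Tnc, tenascin C of injured tissue, were chosen after their values were seen. Tgfbi was at 47.5, 202 and 53.5 FPKM in the nanozyme libraries and 240.4, 344 and 225 FPKM in the model libraries, and Tnc was at 1.81, 4.80 and 2.04 FPKM in the nanozyme libraries and 6.51, 7.95 and 9.69 FPKM in the model libraries. Both were lower without overlap. Mfap4, a protein of elastic fibres, was at 779, 515 and 824 FPKM in the nanozyme libraries and 497, 181 and 569 FPKM in the model libraries, with model 2 the lowest of the 6. Basement membrane genes (21 tested) had a median of 0.27, with 2 higher and 1 lower without overlap, close to the 10.4% and 6.03% of all tested genes. The medians in nanozyme 1, 2 and 3 were 0.56, -0.06 and 0.24 for basement membrane genes and 0.45, -0.17 and 0.25 for matrix glycoproteins and proteoglycans.

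Of 21 matrix proteases and inhibitors, 11 were lower and 2 higher at an unadjusted p under 0.05, with a median of -0.69 and 2 higher and 7 lower without overlap. Timp1, an inhibitor of matrix metalloproteinases, was at 16.1, 167 and 24.1 FPKM in the nanozyme libraries and 188, 288 and 225 FPKM in the model libraries, a change of -2.47 ± 0.82 and of -3.48 without nanozyme 2. Its normal level was 6.02 ± 0.959 FPKM. Ctsb, a lysosomal cathepsin, was at 191, 327 and 166 FPKM in the nanozyme libraries and 326, 405 and 329 FPKM in the model libraries. Mmp14, a membrane-bound collagenase chosen after its values were seen, was at 47.9, 76.0 and 36.6 FPKM in the nanozyme libraries and 102, 103 and 105 FPKM in the model libraries, lower without overlap.

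TGF-beta pathway genes (25 tested) had a median of 0.12, with 3 lower and 1 higher at an unadjusted p under 0.05, none free of overlap, and medians of 0.27, -0.05 and 0.16 in nanozyme 1, 2 and 3. Tgfb1, the ligand that drives myofibroblast differentiation, was at 44.1, 48.3 and 40.3 FPKM in the nanozyme libraries and 60.3, 47.2 and 53.1 FPKM in the model libraries, a change of -0.27 ± 0.14 with a 95% interval of -0.61 to 0.08. Myofibroblast markers (10 tested, median 0.30) included Acta2, the smooth muscle actin of myofibroblasts, at 51.0, 33.5 and 49.9 FPKM in the nanozyme libraries and 50.5, 38.6 and 31.5 FPKM in the model libraries. Its interval, -0.41 to 0.72, spanned 0, and normal lung held 114 ± 30.1 FPKM. Smooth muscle and pericyte markers (16 tested) had a median of 0.36, and of 0.72, -0.04 and 0.41 in nanozyme 1, 2 and 3. For myofibroblast markers these were 0.74, -0.20 and 0.33. Resident fibroblast markers (18 tested) had a median of 0.87, and nanozyme 1, 2 and 3 were above the model range at 17, 2 and 15 of them. Inmt, a methyltransferase of alveolar fibroblasts, was at 1396, 407 and 2007 FPKM in the nanozyme libraries and 439, 90.1 and 226 FPKM in the model libraries, a change of 2.33 ± 0.76. Its normal level was 1597 ± 272 FPKM, between nanozyme 1 and nanozyme 3.

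Markers of mature alveolar epithelium had positive median changes. Of 16 alveolar type 2 markers, 8 were higher and 0 lower without overlap, against 10.4% and 6.03% of all tested genes. The markers had a median of 0.52. The members above the model range were 12, 11 and 10 in nanozyme 1, 2 and 3. Sftpc, given at the start, had a change of 1.24 ± 0.40, and nanozyme 2 was above all model libraries. Sftpb, a surfactant protein that keeps alveoli open, was at 2992, 1554 and 2837 FPKM in the nanozyme libraries and 1532, 870.4 and 1303 FPKM in the model libraries, a change of 0.97 ± 0.36. Nanozyme 2 was close above the highest model library for Sftpb. Without nanozyme 2, 1 marker passed as higher and 1 as lower.

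Of 14 alveolar type 1 markers, 4 were higher and 1 was lower without overlap, with a median of 0.60. Ager, the receptor for advanced glycation end products and an abundant alveolar type 1 protein, was at 1298, 961 and 1406 FPKM in the nanozyme libraries and 942, 689 and 777 FPKM in the model libraries. Hopx, a regulator in the same cells, was at 573, 335 and 592 FPKM in the nanozyme libraries and 349, 299.6 and 248 FPKM in the model libraries, with nanozyme 2 inside the model range. Cldn18, a tight junction protein, and Pdpn, podoplanin, were chosen after their values were seen. Cldn18 was at 165, 111 and 175 FPKM in the nanozyme libraries and 77.1, 75.1 and 84.0 FPKM in the model libraries, a change of 0.90 ± 0.20. Pdpn, which is also expressed by macrophages and lymphatic vessels, was at 84.2, 119 and 84.6 FPKM in the nanozyme libraries and 131, 149 and 147 FPKM in the model libraries and was the lower one.

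Transitional epithelium is a keratin 8-high state between alveolar type 2 and type 1 cells that appears after injury. Of its 16 markers, 8 were lower and 0 higher without overlap, against 6.03% and 10.4% of all tested genes, with a median of -0.79. Nanozyme 2 was below the model range at 12 of the markers, against 11 for nanozyme 1. Krt8, the keratin itself, was at 112, 155 and 122 FPKM in the nanozyme libraries and 179, 343 and 171 FPKM in the model libraries, a change of -0.77 ± 0.30. Clu, the chaperone clusterin, was at 160.1, 197 and 117 FPKM in the nanozyme libraries and 259, 264 and 302 FPKM in the model libraries, a change of -0.82 ± 0.22. Normal lung held 249, 145 and 196 FPKM of Krt8, which overlapped the model libraries, so Krt8 was not clearly raised in the model group. Clu in normal lung, at 135 ± 7.48 FPKM, was below all model libraries. Some of these markers, Plaur among them, are also expressed by leukocytes, whose markers were lower in the same libraries, and the part of leukocytes in this list was not tested.

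Airway and vascular markers completed the structural cells. Among 15 club and secretory cell markers the median was 0.36, and 3 were higher without overlap, against 10.4% of all tested genes. For this list the medians of nanozyme 1, 2 and 3 were 1.42, 0.03 and 0.46. Scgb1a1, given at the start, had a change of 1.17 ± 0.50. Cbr2, a carbonyl reductase of club cells, was at 2641, 1322 and 3114 FPKM in the nanozyme libraries and 1202, 768 and 553 FPKM in the model libraries, a change of 1.47 ± 0.43. Ciliated cell markers (20 tested) had a median of 0.20, with Tppp3 the 1 member higher at an unadjusted p under 0.05. Endothelial markers (22 tested) had a median of 0.61, and nanozyme 1, 2 and 3 were above the model range at 19, 3 and 21 of them. Over all 13955 tested genes these libraries were above it at 5580, 2961 and 5909. Cldn5, a tight junction protein of vessels, was at 314, 202 and 283 FPKM in the nanozyme libraries and 245, 91.2 and 156 FPKM in the model libraries, a change of 0.78 ± 0.37. Aplnr, the apelin receptor of capillaries, was chosen after its values were seen and was at 20.4, 5.43 and 21.5 FPKM in the nanozyme libraries and 4.01, 0.859 and 4.48 FPKM in the model libraries. Mesothelial markers (10 tested, median 0.53) were above the model range at 8 members in nanozyme 1 and below it at 6 members in nanozyme 2.

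**Figure D5:**
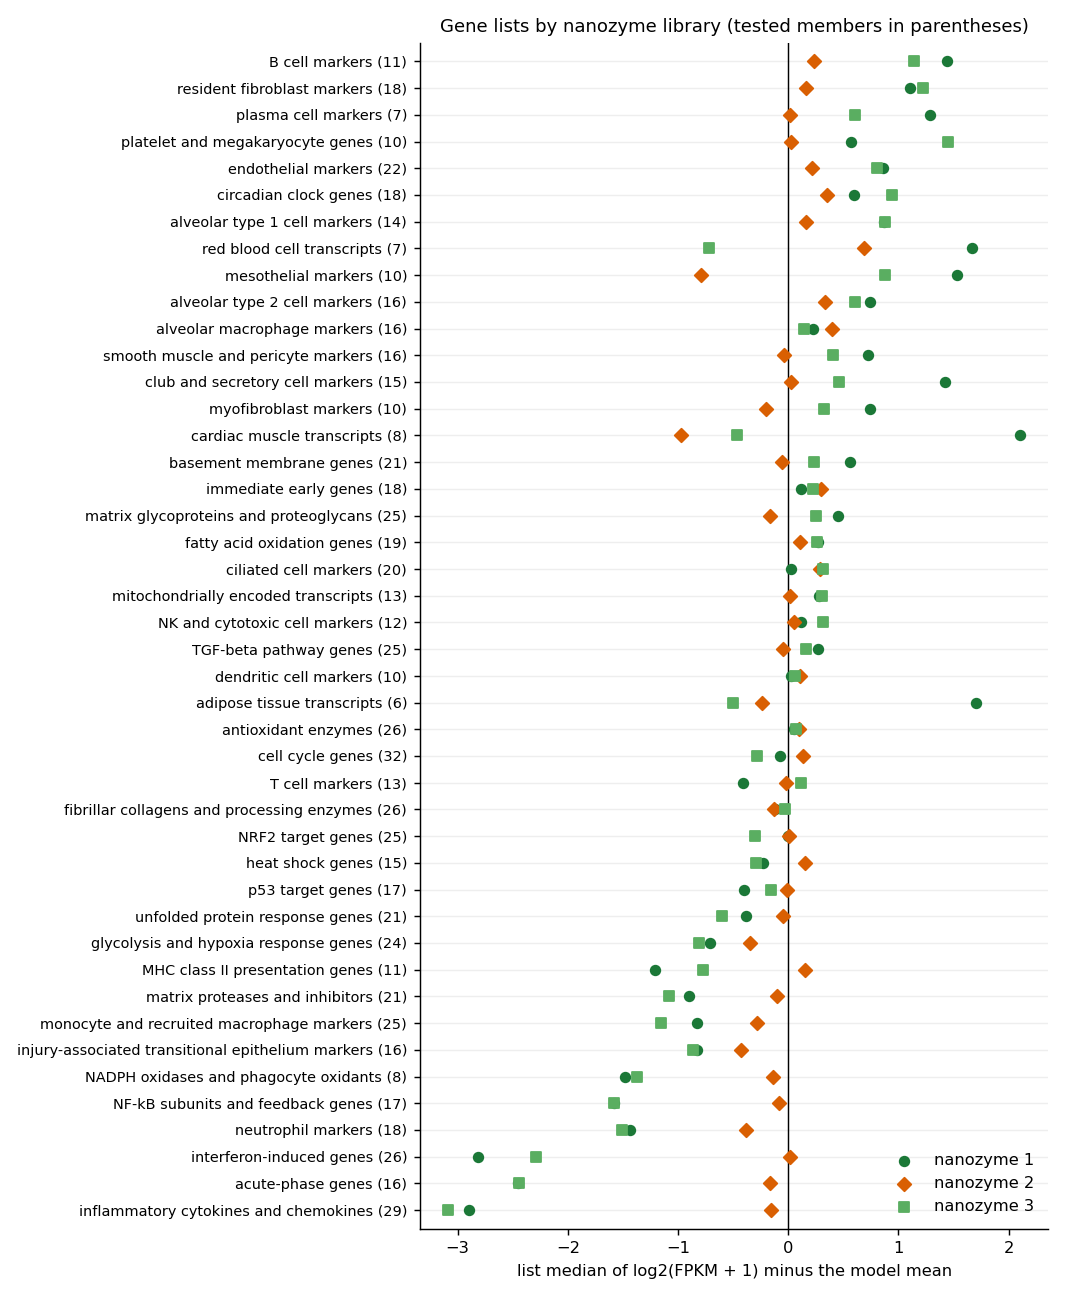
Median over the members of each gene list of log2(FPKM + 1) minus the mean of the 3 model libraries, for each nanozyme library, with lists ordered by the median change over the 6 libraries. Inflammatory, interferon and acute-phase lists lie lowest in nanozyme 1 and nanozyme 3, and the points of nanozyme 2 lie within 1 log2 unit of 0 for all lists shown, which are those with at least 5 tested members.

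Glycolysis and hypoxia response genes formed a group in which nanozyme 2 took part. Of 24 members, 11 were lower and 0 higher at an unadjusted p under 0.05, and 10 were lower without overlap, with a median of -0.63. Over all tested genes these shares were 5.88%, 7.8% and 6.03%. Nanozyme 1, 2 and 3 were below the model range at 17, 14 and 18 of the 24 members. Hk2, a hexokinase, and Slc2a1, the glucose transporter GLUT1, were chosen after their values were seen. Hk2 was at 4.55, 11.5 and 4.61 FPKM in the nanozyme libraries and 13.8, 15.3 and 18.01 FPKM in the model libraries, a change of -1.19 ± 0.33. Slc2a1 was at 8.86, 18.3 and 9.09 FPKM in the nanozyme libraries and 22.4, 33.7 and 28.4 FPKM in the model libraries, a change of -1.21 ± 0.30. Ldha, lactate dehydrogenase A, was at 236, 351 and 235 FPKM in the nanozyme libraries and 282, 524 and 300.3 FPKM in the model libraries, with overlapping groups. Ldha and Aldoa were the most abundant members of the list, and the groups of Aldoa overlapped as well. Fatty acid oxidation genes (19 tested) had a median of 0.21, and mitochondrially encoded transcripts (13 tested) of 0.19. In nanozyme 1, 2 and 3 the medians were 0.27, 0.11 and 0.26 for the former and 0.28, 0.02 and 0.31 for the latter.

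Clock genes were measured because lungs taken at different hours differ in them, and the labels give no hour. Of 18 members, 8 were higher and 3 lower without overlap, against 10.4% and 6.03% of all tested genes. The 18 members had a median of 0.60. Tef, an output factor of the clock, was at 40.7, 27.0 and 70.8 FPKM in the nanozyme libraries and 19.3, 10.8 and 15.7 FPKM in the model libraries, a change of 1.46 ± 0.37. Bhlhe40, a repressor that inflammation also induces, was at 24.1, 48.2 and 20.1 FPKM in the nanozyme libraries and 50.9, 62.0 and 61.4 FPKM in the model libraries, a change of -0.99 ± 0.32. Dbp, another output factor, and the clock repressor Nr1d1 were chosen after their values were seen. Dbp was at 16.3, 9.51 and 61.8 FPKM in the nanozyme libraries and 3.32, 2.61 and 2.57 FPKM in the model libraries, a change of 2.56 ± 0.61, the largest of the list. Nr1d1 was at 33.2, 13.2 and 61.8 FPKM in the nanozyme libraries and 9.43, 5.09 and 7.58 FPKM in the model libraries. Nanozyme 3 was highest for Tef, Dbp and Nr1d1, and nanozyme 2 was the lowest nanozyme library but above all model libraries. Normal lung held 3.38 ± 0.532 FPKM of Dbp, near the model level and below all nanozyme libraries. Its levels of Tef (36.4 ± 3.06 FPKM) and Nr1d1 (15.9 ± 1.62 FPKM) were above the model range, and that of Bhlhe40 (13.7 ± 2.75 FPKM) was below it. The part of sampling hour in these values was not tested.

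Genes of cell division and stress followed. The 32 cell cycle genes had a median of -0.09, with 0 members at an unadjusted p under 0.05 in either direction. Mki67, a marker of dividing cells, was at 11.3, 15.3 and 8.29 FPKM in the nanozyme libraries and 11.9, 14.6 and 14.2 FPKM in the model libraries, a change of -0.24 ± 0.22 with a 95% interval of -0.77 to 0.29. p53 target genes (17 tested) had a median of -0.18, unfolded protein response genes (21) of -0.35, heat shock genes (15) of -0.14 and immediate early genes (18) of 0.25. The medians of nanozyme 2 alone were -0.01, -0.05, 0.15 and 0.30 in the same order. Hspa5, the chaperone BiP of the endoplasmic reticulum, was at 262, 367 and 209.7 FPKM in the nanozyme libraries and 369, 410.1 and 435 FPKM in the model libraries, a change of -0.57 ± 0.23.

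Transcripts of blood, muscle and fat, which can come along with dissected lung, differed between single libraries. The summed FPKM of the 12 listed skeletal muscle transcripts was 1478, 4.41 and 5.34 in the nanozyme libraries and 4.80, 347 and 2.81 in the model libraries, so nanozyme 1 and model 2 stood out. Cardiac muscle transcripts summed to 209, 20.5 and 31.6 and 47.0, 89.6 and 12.5 FPKM. Adipose transcripts summed to 167, 86.7 and 75.0 and 109, 108 and 76.6 FPKM. Red blood cell transcripts summed to 817, 414 and 161 and 340.4, 189 and 226 FPKM. The median changes of these lists were 0.82, 0.28, 0.04 and 0.59. Nanozyme 3 had no raised muscle or fat sum. The part of these tissues in other results was not tested.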

How the data were processed

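RNA was profiled from whole lung of mice, with 3 mice in each of the nanozyme, model and normal groups. Per the labels' protocols, TRIzol extraction was followed by oligo(dT) selection, and the second cDNA strand was marked. HISAT2 and GRCm38 are the tool and genome build named per the submitters' processing notes. Versions, annotation, counting tool and strand setting are not given in the sources used here. The authors deposited FPKM values, 1 column per library, and no further scaling was applied for the main results. Such values carry no counts. No whole-read steps were found where low values of library pairs were divided (at most 5.76% of quotients in the fullest bin), so depth and counting error are unknown and low genes are less reliable.

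Groups were taken from sample titles. Genes reaching an FPKM of 1 in 3 or more of the 6 libraries were tested as log2(FPKM + 1) with limma 3.58.1 (R 4.3.3), two-sided, with empirical Bayes moderation that follows intensity and an adjusted p threshold of 0.05 (Benjamini-Hochberg). With 3 against 3, an exact permutation test cannot give a p below 0.1, and none was run. Of the tested genes, 838 have a generic new-gene name and were not named. Strand setting being unknown, overlapping genes cannot be told apart, and families such as Ear1, Ear2 and Ear10 or Saa1 to Saa3 may share reads.

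The members, the 46 gene lists, the motifs and the comparison itself were chosen with earlier results of these data known. Named genes were called genes by size of change, which, with none called, were filled to 12 per direction by the smallest p among genes without overlap, with a mean FPKM of at least 5 and with a symbol that is no predicted gene or receptor segment. Added to these were genes chosen by hand for their role and, per list, the 2 members of highest mean FPKM. Others are marked as chosen after their values were seen, and 1 gene that the rule names is not reported here. Deviations from the group means of same-numbered nanozyme and model libraries correlated across genes at 0.163, 0.283 and 0.108 for replicates 1, 2 and 3, and nanozyme 3 correlated more with model 1 (0.303). The labels name no shared litter or day, and a fit with the replicate number as a block was run. The fit was tested on simulated data. Alternatives were another pseudocount, other filters, 4 other scalings, other limma settings, the fit with all 9 libraries, and leaving out each library. Gene positions are from GENCODE vM21 and promoters from RefSeq. Python 3.11.15 and matplotlib 3.10.9 drew the figures.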

Additional observations from a re-analysis of the deposited data

How the results depend on the processing

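No gene was called with a pseudocount of 0.1, a filter at a mean FPKM of 5, each of the 4 scalings, robust moderation or all 9 libraries in 1 fit. Without a filter, and without the intensity trend, 1 gene was called higher and 1 lower, both with generic new-gene names. Limma's library weights gave 748 higher and 920 lower. Leaving out 1 library gave 0 to 566 genes higher and 0 to 891 lower, with both upper values from leaving out nanozyme 2. A single call came from leaving out nanozyme 3 (Rpl29, lower) and from leaving out model 1 (a new-gene name, higher). Genes without overlap numbered 933 higher with the filter at a mean FPKM of 5, since fewer genes were tested. They ranged from 1574 to 4396 higher and 967 to 2632 lower with 1 library left out, where 2 libraries face 3 and separation is easier. The replicate block gave 0 calls in each direction and changed no other call, while genes at an unadjusted p under 0.05 went from 1089 to 1868 higher and from 821 to 1110 lower.

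Of 1869 changes recomputed for the 104 named genes, 1716 kept their direction and side of the threshold, 132 passed it and 21 reversed, in 10 genes. The 132 came from leaving out nanozyme 2 and from library weights. With 1 library left out, mt-Atp6 ranged from -0.92 to 0.35 (positive without nanozyme 2), Acta2 from -0.00454 to 0.35 and Gpx1 from -0.0707 to 1.80 (both negative without model 3). The other genes that reversed had changes between -0.17 and 0.28. With 1 library left out, Apoe ranged from -0.10 to 0.73, Chil3 from -0.11 to 0.098, Fabp5 from -0.43 to 0.068, Lyz2 from -0.34 to 0.024 and Xbp1 from -0.078 to 0.072. With library weights mt-Atp6 was at 0.27, Chil3 at 0.018 and Lck at 0.0043. With quantile normalization Xbp1 was at 0.091 and Sdc1 at 0.029, and with rescaling without the most abundant genes Xbp1 was at 0.021 and Chil3 at 0.00197. The cause was not tested. Unknown depth, 3 animals per group and the spread between nanozyme libraries limit all values.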

Other observations

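Some genes varied strongly between libraries of 1 group. Gpx1, which reduces hydrogen peroxide with glutathione, was at 411, 429 and 402 FPKM in the nanozyme libraries and 384, 493 and 36.1 FPKM in the model libraries, with model 3 far below the others. mt-Atp6, a mitochondrially encoded subunit of ATP synthase, was at 2945, 565 and 3283 FPKM in the nanozyme libraries and 2282, 2924 and 2176 FPKM in the model libraries, with nanozyme 2 lowest, and it was chosen after its values were seen. Among the club and secretory cell markers, Reg3g, a secreted antibacterial lectin, was at 111, 12.5 and 3.22 FPKM in the nanozyme libraries and 544, 2853 and 2.28 FPKM in the model libraries, and the difference between libraries of 1 group was larger than that between groups. It was also chosen after its values were seen. Gapdh, a glycolytic enzyme often used as a reference gene, was listed at 14.6, 12.3 and 12.01 FPKM in the nanozyme libraries and 16.9, 38.5 and 42.1 FPKM in the model libraries. It was not used as a reference here and was chosen after its values were seen.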
